A study of Homo sapiens with 6 samples.

Results

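The genes described are those of MHC class II antigen presentation in MDA-MB-231 cells: the chain genes HLA-DRA, HLA-DRB1, HLA-DRB5, HLA-DPA1 and HLA-DPB1, the loading genes HLA-DMA, HLA-DMB, CD74 and CTSS, and the regulator gene CIITA. Every probe set whose platform annotation names at least 1 of these 10 genes was taken, which gave 22 of the 28869 probe sets measured. In 14 of them a single gene is named, and in 8 the gene stands with others. HLA-DRA was read by 3 probe sets that also name HLA-DQA1, and CD74 by 1 that also names ROS1. HLA-DRB1 was read by 1 probe set that also names HLA-DQB1 and by 3 that name HLA-DRB1, HLA-DRB3, HLA-DRB4, HLA-DRB5, HLA-DRB6 and HLA-DQB1 together, called the HLA-DRB family below. The 22 probe sets hold 11 different sets of symbols, and each such set is described by its probe set with the highest mean, called a reading. Probe sets of the same genes share their target, and 2 of those for HLA-DPA1 and 2 of those for HLA-DMA had equal values on every array to within 5e-05.

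The cells are an established human breast cancer line of mesenchymal, triple-negative character. One group of 3 arrays holds cells transfected with GHSROS, a long noncoding RNA gene on the strand opposite to the ghrelin receptor gene GHSR, in the mammalian expression vector pTargeT. The other 3 arrays hold cells that received pTargeT without an insert, and both groups grew in the same serum-containing medium with penicillin and streptomycin. Total RNA was read on Affymetrix Human Gene arrays, and the submitters call the 3 samples of a group biological replicates. The labels do not say whether the transfected cells were clones or mixed populations, and no probe set used here is named for GHSROS, so the level of the transfected RNA gave no check of the labels. VIM, the mesenchymal filament gene, lay between 12.99 and 13.37 on the log2 scale, while ESR1, PGR and CDH1, the genes of oestrogen receptor alpha, the progesterone receptor and E-cadherin, lay below the median of every array. ERBB2, GATA3 and EPCAM, chosen with them as low in this line, lay above the median of every array. The receptor gene ERBB2 averaged 8.90 in the GHSROS arrays and 8.89 in the empty-vector arrays.

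MHC class II molecules are pairs of an alpha and a beta chain that carry peptides from endosomes to the cell surface for helper T cells. The chains assemble with the invariant chain, encoded by CD74, which fills the peptide groove until cathepsin S, encoded by CTSS, trims it to a short remnant. HLA-DM, made by HLA-DMA and HLA-DMB, releases that remnant and edits the peptides bound by HLA-DR and HLA-DP. Transcription of all these chains depends on CIITA, a coactivator without DNA binding of its own that docks on the RFX, CREB and NF-Y factors at the X and Y boxes of the promoters. Professional antigen-presenting cells make CIITA constitutively, and many other cells, carcinoma cells among them, make it in response to interferon gamma.

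The promoter elements on which CIITA docks are shown as background, and their part in the differences between arrays was not tested. HLA-DRA, the HLA-DRB family, HLA-DRB5, HLA-DPA1, HLA-DPB1, HLA-DMA, HLA-DMB, CD74 and CIITA shared an order of arrays, as described below. They were lowest on GHSROS arrays 1 and 2 and highest on empty-vector array 1. CTSS and the probe set of HLA-DRB1 with HLA-DQB1 did not share that order. Of the 10 genes, 7 matched the RefSeq promoter table of GRCh38.p14, with 8 windows of 250 bases before to 50 bases after a gene start. HLA-DRA, CTSS and CIITA had no window there and were not searched. The stretches below run from 150 to 11 bases before the start. Capitals mark CTGATTGG, the letters of the Y box, and CTGATGATG, found within the X box of several of these promoters. They also mark ATTGG, the reversed CCAAT box, which lies inside CTGATTGG, all 3 searched on both strands. The second motif and the third were chosen after these promoters had been read.
HLA-DRB1, chr6:32589859-32589998, minus strand: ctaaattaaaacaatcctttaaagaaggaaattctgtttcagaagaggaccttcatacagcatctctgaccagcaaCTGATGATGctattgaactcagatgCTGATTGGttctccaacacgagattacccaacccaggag
HLA-DMA, chr6:32953108-32953247, minus strand: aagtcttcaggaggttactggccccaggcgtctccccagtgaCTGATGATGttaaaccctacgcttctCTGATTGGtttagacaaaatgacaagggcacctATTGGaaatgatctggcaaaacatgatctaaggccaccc
HLA-DMB, chr6:32941039-32941178, minus strand: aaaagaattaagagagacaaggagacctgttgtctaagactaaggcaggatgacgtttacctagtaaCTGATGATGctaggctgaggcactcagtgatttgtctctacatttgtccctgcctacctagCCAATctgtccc
HLA-DPB1, chr6:33075840-33075979, plus strand: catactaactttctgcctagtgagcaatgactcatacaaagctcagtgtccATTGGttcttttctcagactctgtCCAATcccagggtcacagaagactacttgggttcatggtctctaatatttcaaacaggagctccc
CD74, chr5:150412921-150413060, minus strand: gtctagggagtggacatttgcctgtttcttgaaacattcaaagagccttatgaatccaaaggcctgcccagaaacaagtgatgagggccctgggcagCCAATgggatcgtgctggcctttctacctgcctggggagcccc

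CTGATTGG was found in 3 of the 8 windows, those of HLA-DRB1, HLA-DRB5 and HLA-DMA, against 3.97% of 35116 promoter windows of the table. CTGATGATG was also found in 3, those of HLA-DRB1, HLA-DMA and HLA-DMB, against 0.271% of all windows. In the HLA-DRB1 window it began 74 bases before the start, with CTGATTGG at 49 bases, and in the HLA-DMA window the distances were 108 and 82 bases. ATTGG was found in 6 of the 8 windows, against 34.6% of all. As CTGATGATG and ATTGG were chosen after these promoters had been read, their shares here are no test against all windows. The windows of HLA-DPA1, at chr6:33080699-33080998 and chr6:33073600-33073899, held no match to any of the 3 motifs. Whether either holds the start used in these cells was not tested, so the motifs are not shown to be absent from its promoter. No stretch of HLA-DPA1 or HLA-DRB5 is shown. These are matches of letters in the reference genome and not sites shown to be bound in these cells.

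The arrays did not group by vector. The array medians lay between 6.559 and 6.648. On the first principal component of all probe sets, which held 56.3% of the variance, GHSROS array 3 lay at 33.6 and empty-vector array 1 at 34.1, away from the other 4 arrays at -23.8 to -5.8. On those 2 arrays the mean of 30 mitosis genes was 9.90 and 9.88, against 10.70 to 10.94 on the other arrays, and the mean of 20 ATF4 stress genes was 9.63 and 9.59, against 8.70 to 9.16. Over all probe sets GHSROS array 3 and empty-vector array 1 were each other's best match (r = 0.9972), and the other 4 arrays were also each best matched by an array of the other group (r = 0.997). The labels were taken as given. No probe set checks which vector an array holds, so whether labels were exchanged was not tested, and an exchange of these 2 arrays would make the groups overlap for the HLA-DRB family and HLA-DRA. The part of these differences in the results below was not tested, and the main results are also given without those 2 arrays. In limma 0 of the 28869 probe sets, 0% of all, passed an adjusted p of 0.05, so no gene named here passed the test, and every adjusted p of a class II probe set was 1. At an unadjusted p under 0.05 limma gave 565 probe sets, 1.96% of all.

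The probe sets of the HLA-DRB family and of HLA-DRA with HLA-DQA1, 6 in all, were lower in the GHSROS arrays with no overlap between the groups, though none passed the test. The HLA-DRB family, the beta chains of HLA-DR, read by probe set 8178811, was at 8.86, 8.63 and 9.94 in GHSROS arrays 1, 2 and 3, against 11.02, 10.34 and 10.30 in empty-vector arrays 1, 2 and 3. Every GHSROS array thus lay below every empty-vector array, with GHSROS array 3 nearest to the other group and empty-vector array 1 farthest from it. The means were 9.14 ± 0.70 with GHSROS and 10.55 ± 0.41 with the empty vector (SD, n = 3 each), a log2 fold change of -1.41 (SE 0.36, 95% confidence interval -2.27 to -0.55). That is 2.66-fold lower, at an unadjusted limma p of 0.00634. The other 2 probe sets of the family gave log2 fold changes of -1.44 and -1.39, and these 3 had the lowest log2 fold changes of all 28869 probe sets. In RNA from whole cultures, fewer cells with class II RNA and less of it per cell cannot be told apart.

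HLA-DRA, the invariable alpha chain of HLA-DR, read together with HLA-DQA1 by probe set 8178193, was at 8.24, 7.79 and 9.05 in the GHSROS arrays, against 10.25, 9.43 and 9.44 in the empty-vector arrays. The groups were again apart and the arrays in nearly the same order as for the beta chains. The log2 fold change was -1.35 (SE 0.36), 2.55-fold lower, with an unadjusted p of 0.00719, and the other 2 probe sets gave -1.23 and -1.24. HLA-DQA1 was also read alone, by probe set 8118556, and was at 5.12, 5.00 and 5.08 in GHSROS arrays and at 5.22, 5.07 and 5.09 in empty-vector arrays. That reading lay below every array median and ranged over far less than the shared probe sets did. Without empty-vector array 1 and GHSROS array 3, the log2 fold change was -1.57 for the HLA-DRB family and -1.42 for HLA-DRA. Between those 2 arrays alone, the difference of GHSROS array 3 minus empty-vector array 1 was -1.08 for the HLA-DRB family and -1.20 for HLA-DRA.

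2 further readings of HLA-DRB genes lay below the median of every array, and that of HLA-DRB1 with HLA-DQB1 lay near the floor. HLA-DRB5, a second beta chain gene carried by some haplotypes, read alone by probe set 8125436, was at 4.81, 5.00 and 5.33 in the GHSROS arrays, against 5.76, 5.23 and 5.52 in the empty-vector arrays. GHSROS array 3 lay above empty-vector array 2, so that the groups overlapped, at a log2 fold change of -0.46 (SE 0.18, unadjusted p of 0.039). Probe set 8125447, which names HLA-DRB1 and HLA-DQB1, was between 4.27 and 4.56 in the GHSROS arrays and between 4.26 and 4.41 in the empty-vector arrays, a log2 fold change of 0.07 (SE 0.10). HLA-DRB genes are near-identical and highly variable between haplotypes, so the probe sets cannot be assigned to single genes, and whether their probes match the alleles of this line was not tested.

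**Figure D1:**
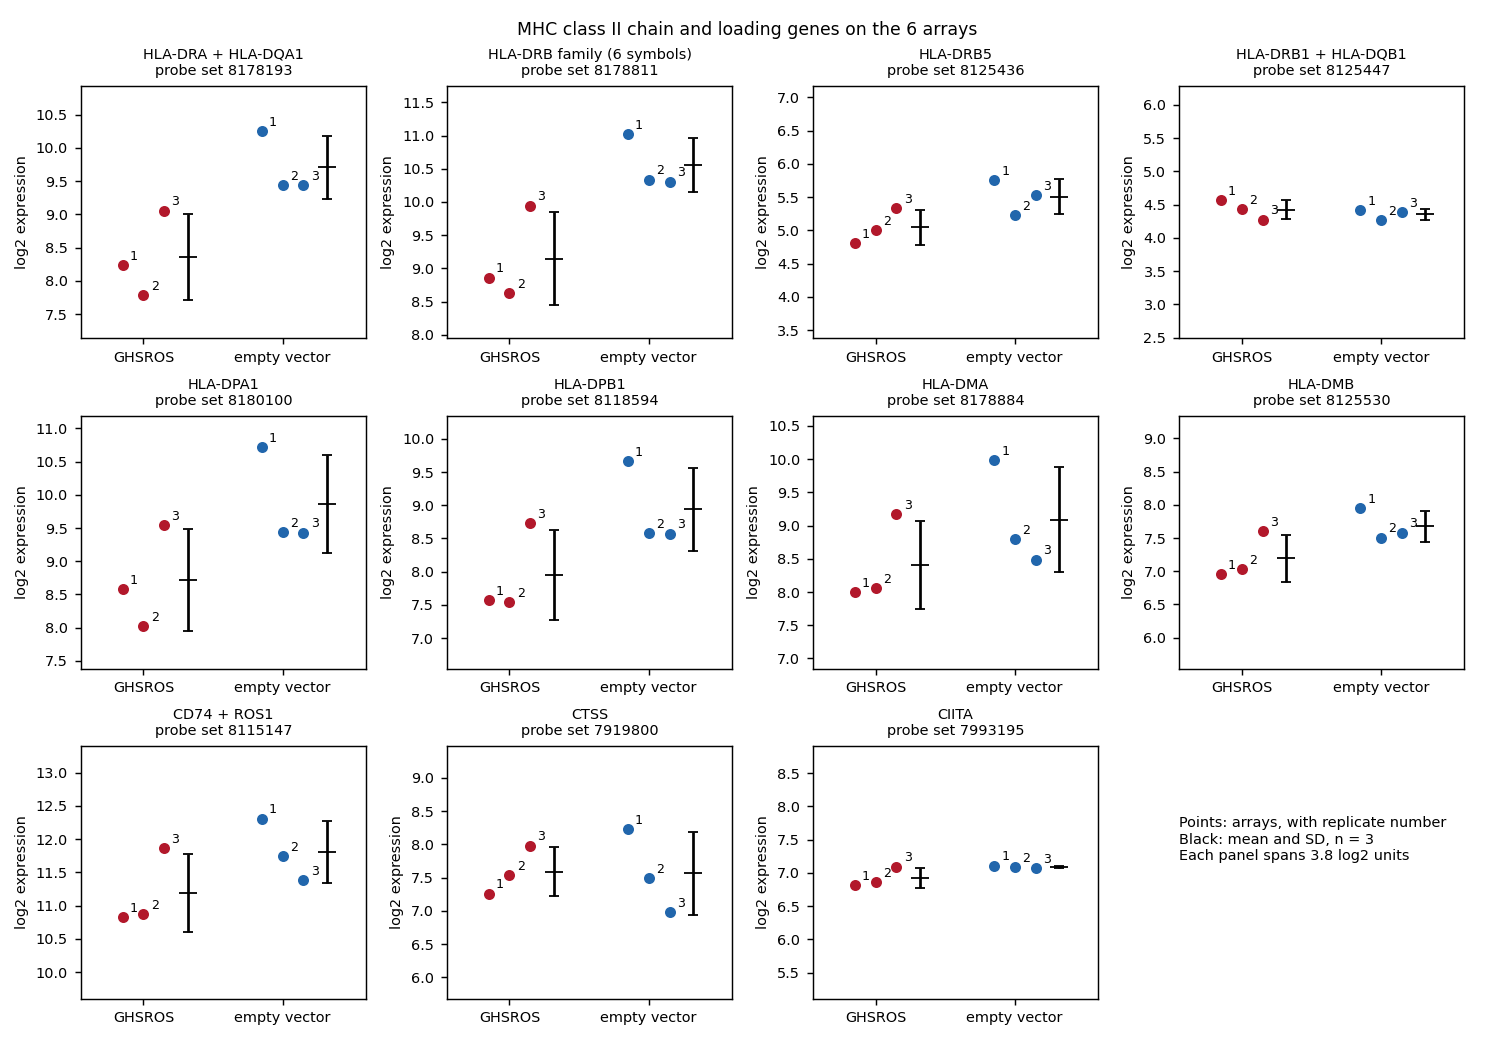
Log2 expression of the 11 readings of class II chain, loading and regulator genes on each array, GHSROS (red) left and empty vector (blue) right; numbers are replicate numbers and black bars the mean and SD of 3 arrays. The HLA-DRA and HLA-DRB family panels show groups that do not overlap, while in the HLA-DPA1 panel GHSROS array 3 (9.54) lies above empty-vector arrays 2 and 3 (both 9.43).

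HLA-DP followed HLA-DR, with overlapping groups. HLA-DPA1, its alpha chain, read by probe set 8180100, was at 8.58, 8.02 and 9.54 in the GHSROS arrays, against 10.71, 9.43 and 9.43 in the empty-vector arrays. GHSROS arrays 1 and 2 lay below every empty-vector array, and GHSROS array 3 lay between empty-vector array 1 and the other 2. The log2 fold change was -1.15 (SE 0.47, 95% confidence interval -2.27 to -0.02), 2.21-fold lower, at an unadjusted limma p of 0.047. HLA-DPB1, its beta chain, read by probe set 8118594, was at 7.57, 7.54 and 8.73 in the GHSROS arrays, against 9.66, 8.58 and 8.57 in the empty-vector arrays, in the same order of groups of arrays. Its log2 fold change was -0.99 (SE 0.41), 1.99-fold lower, and its other 2 probe sets gave -1.05 and -1.21.

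A two-sided exact permutation test on the means gave p = 0.3 for HLA-DPA1 and 0.3 for HLA-DPB1, where 3 arrays against 3 cannot go below 0.1. The size of the HLA-DP difference rested in part on empty-vector array 1, without which the log2 fold change was -0.72 for HLA-DPA1 and -0.63 for HLA-DPB1. Without both empty-vector array 1 and GHSROS array 3 it was -1.13 and -1.02. GHSROS array 3 minus empty-vector array 1 was -1.18 for HLA-DPA1 and -0.93 for HLA-DPB1.

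The peptide editor HLA-DM was also lower, by less. HLA-DMA, its alpha chain, read by probe set 8178884, was at 8.00, 8.06 and 9.17 in the GHSROS arrays, against 9.98, 8.80 and 8.49 in the empty-vector arrays. GHSROS arrays 1 and 2 were the lowest of the 6, and GHSROS array 3 exceeded empty-vector arrays 2 and 3. The log2 fold change was -0.68 (SE 0.46, 95% confidence interval -1.77 to 0.41), and it was -0.23 without empty-vector array 1. HLA-DMB, its beta chain, read by probe set 8125530, was at 6.95, 7.03 and 7.60 in the GHSROS arrays, against 7.94, 7.51 and 7.58 in the empty-vector arrays. GHSROS array 3 lay just above empty-vector arrays 2 and 3, and the log2 fold change was -0.48 (SE 0.20, unadjusted p of 0.0472). Without both arrays that stood apart, the log2 fold change was -0.61 for HLA-DMA and -0.55 for HLA-DMB.

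The genes of the invariant chain and of its protease did not share a pattern. CD74, read together with ROS1 by probe set 8115147, was at 10.83, 10.87 and 11.86 in the GHSROS arrays, against 12.31, 11.74 and 11.38 in the empty-vector arrays. Its order of arrays was that of HLA-DMA, and the log2 fold change was -0.62 (SE 0.34, 95% confidence interval -1.42 to 0.18), or 1.54-fold lower. It was -0.37 without empty-vector array 1 and -0.71 without both arrays that stood apart. ROS1 encodes a receptor tyrosine kinase, and the probe set cannot assign its signal to either gene. CTSS was at 7.26, 7.53 and 7.98 in the GHSROS arrays, against 8.22, 7.49 and 6.98 in the empty-vector arrays. The empty-vector arrays held both its highest and its lowest value, and the log2 fold change was 0.02 (SE 0.33, 95% confidence interval -0.75 to 0.80).

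CIITA differed little. Its probe set 7993195 was at 6.82, 6.86 and 7.10 in the GHSROS arrays, against 7.11, 7.08 and 7.07 in the empty-vector arrays. GHSROS arrays 1 and 2 lay below the other 4 arrays, as they did for the chains, and all 6 values lay within 0.29 of each other. The log2 fold change was -0.16 (SE 0.10, 95% confidence interval -0.39 to 0.07), and it was -0.24 without both arrays that stood apart. The level was close to the array medians.

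**Figure D2:**
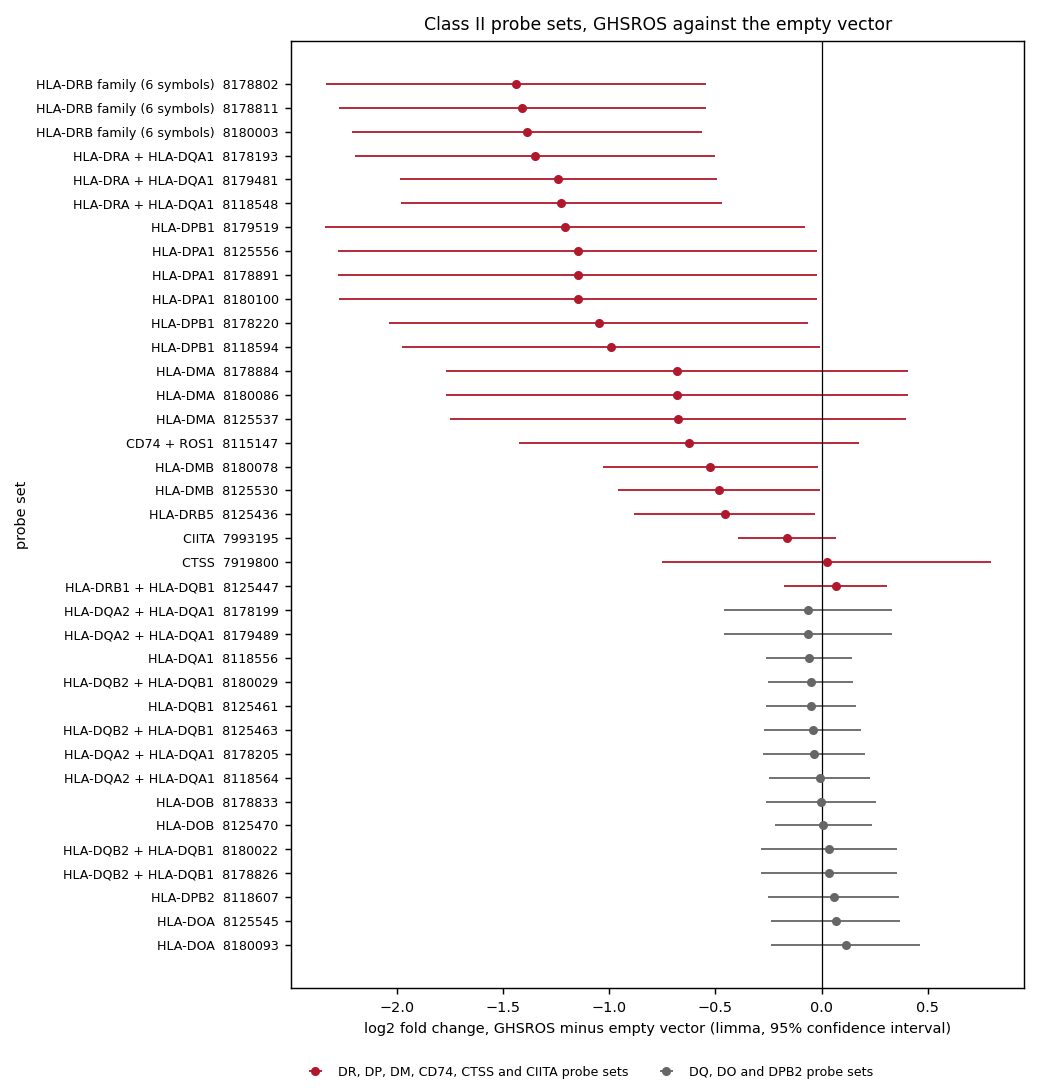
Log2 fold change, GHSROS minus empty vector, with its 95% confidence interval from limma, for the 22 probe sets of the genes described (red) and for 15 probe sets of HLA-DQ, HLA-DO and HLA-DPB2 (grey). The HLA-DRB family stands lowest at -1.44 to -1.39, while the grey probe sets lie between -0.06 and 0.11.

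Over the 22 probe sets, 20 were lower and 2 higher in the GHSROS arrays, and the median log2 fold change was -1.02, beside 0.00 over all probe sets, of which 49.8% were lower. At least 1.5-fold lower were 16 of 22, against 0.222% of all probe sets, and 6 of the 11 readings. These 16 were among 64 such probe sets on the whole array. At an unadjusted p under 0.05 in limma 15 of 22 were lower, against 0.949% of all. Groups without overlap, with every GHSROS array below every empty-vector array, were seen in 6 of 22, all of them for HLA-DRA or the HLA-DRB family, against 2.71% of all. Without GHSROS array 1 or 2, or without empty-vector array 1, the number at least 1.5-fold lower was 12, and without both arrays that stood apart it was 16.

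The probe sets also shared an order of the arrays. GHSROS arrays 1 and 2 both lay below all 3 empty-vector arrays in 20 of the 22 probe sets, against 9.32% of all probe sets. GHSROS array 3 lay above GHSROS arrays 1 and 2 in 21 of 22, against 41.1% of all, and below empty-vector array 1 in 22 of 22, against 46.0% of all. Empty-vector array 1 was the highest of the 6 in 21 of 22, against 14.9% of all. These counts were chosen after the values were seen, and probe sets of the same gene are not independent.

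The remaining class II chains showed small differences between the groups, and 10 of their 15 probe sets lay below the median of every array. The 15 probe sets that name HLA-DQ, HLA-DO or the pseudogene HLA-DPB2, and none of the 10 genes, had values between 3.67 and 7.26 on the 6 arrays. Their log2 fold changes ran from -0.06 to 0.11, with 9 lower and 6 higher and 0 at an unadjusted p under 0.05 in limma. HLA-DOA, the alpha chain of HLA-DO, which restrains HLA-DM, was at 6.95, 7.01 and 7.26 in the GHSROS arrays and at 7.09, 6.68 and 7.11 in the empty-vector arrays, a log2 fold change of 0.11 (SE 0.15). HLA-DOB, its partner, was between 5.17 and 5.44 in the GHSROS arrays and between 5.18 and 5.41 in the empty-vector arrays.

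Along chromosome 6 the lower genes stood in separate groups of neighbours, with genes that differed less between the groups. From HLA-DRA to HLA-DPB1 the RefSeq table lists 18 protein-coding genes that a probe set read. HLA-DRA and the HLA-DRB genes stand at one end and HLA-DPA1 and HLA-DPB1 at the other. Between them lie HLA-DQ and HLA-DOB genes, then TAP2, PSMB8, TAP1 and PSMB9, which serve class I peptide supply, then HLA-DMB and HLA-DMA, and BRD2 and HLA-DOA. The 5 of these 18 that are no class II genes had log2 fold changes between -0.08 and 0.03. HLA-DQA1, HLA-DQB1 and HLA-DOB lay below the median of every array, where a fall would be hard to see. TAP1, the peptide transporter gene, averaged 10.46 ± 0.47 in the GHSROS arrays and 10.43 ± 0.53 in the empty-vector arrays (SD, n = 3 each). It was highest on GHSROS array 3 and empty-vector array 1 and did not differ between the groups beyond the spread (log2 fold change 0.03, SE 0.32, 95% confidence interval -0.73 to 0.80).

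**Figure D3:**
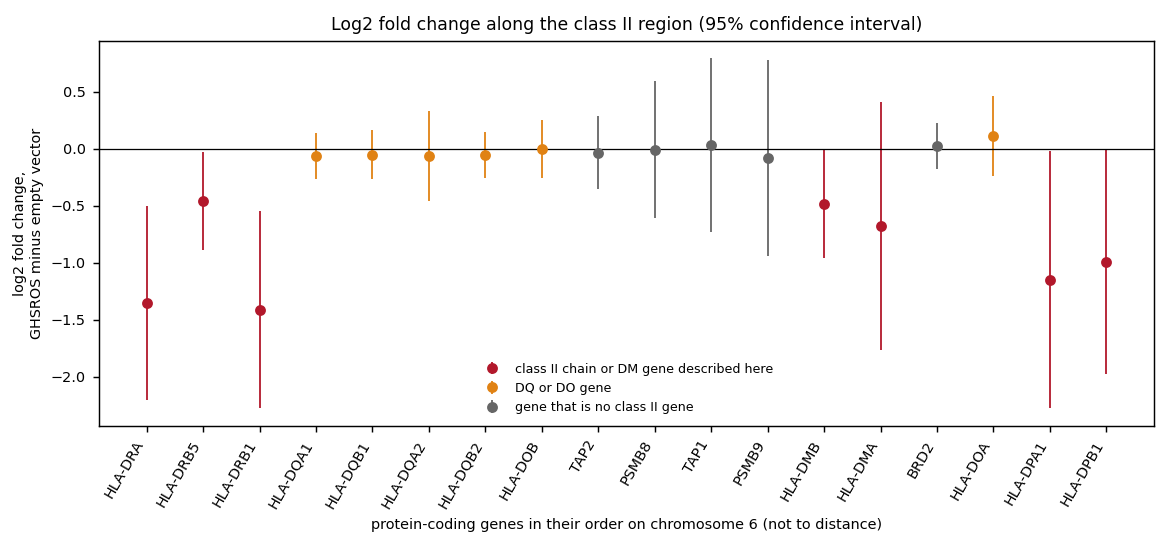
Log2 fold change, GHSROS minus empty vector, with its 95% confidence interval, of the 18 protein-coding genes from HLA-DRA to HLA-DPB1 in their order on chromosome 6; HLA-DRA is read together with HLA-DQA1, HLA-DRB1 by the HLA-DRB family probe set, and HLA-DQA2 and HLA-DQB2 together with HLA-DQA1 and HLA-DQB1. Red genes at both ends and at HLA-DMB and HLA-DMA lie below 0, and TAP2, PSMB8, TAP1, PSMB9 and BRD2 between them lie within -0.08 and 0.03.

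Genes that act above CIITA or beside it at the promoters differed in both directions. None passed the test, as none of all 28869 probe sets did, the class II ones included. Of 12 measured genes of the interferon gamma arm, 7 were lower and 5 higher, with a median log2 fold change of -0.02, which was 0.06 without empty-vector array 1. IRF1, which binds an interferon-driven CIITA promoter, was at 8.29, 8.26 and 9.77 in the GHSROS arrays, against 9.36, 8.94 and 8.73 in the empty-vector arrays. GHSROS arrays 1 and 2 were the lowest and GHSROS array 3 the highest of the 6, so the groups overlapped (log2 fold change -0.24, SE 0.41). PRDM1, a repressor of CIITA in plasma cells, differed by 0.21 (SE 0.17), EZH2, a histone methyltransferase, by -0.13 (SE 0.21) and the receptor gene IFNGR1 by 0.09 (SE 0.12). IFNG itself lay between 3.49 and 3.82 in the GHSROS arrays and between 3.56 and 3.77 in the empty-vector arrays. Of 11 promoter factors 7 were lower and 4 higher, with a median of -0.01 that ran from -0.03 to 0.06 when arrays were left out. Among these, RFX5 differed by 0.00 (SE 0.10), RFXANK by -0.04 (SE 0.13) and RFXAP by 0.08 (SE 0.08), the subunits of the RFX complex. The largest differences of the list were 0.12 (SE 0.18) for NFYB, a subunit of NF-Y, and -0.09 (SE 0.12) for EP300, a histone acetyltransferase.

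Genes that supply peptides for class II or respond to interferon gamma also differed in both directions. Like every other probe set, none passed the test. Of 16 antigen processing genes 12 were lower and 4 higher, with a median log2 fold change of -0.07. That median was -0.25 without GHSROS array 3, 0.09 without empty-vector array 1 and -0.34 without both arrays numbered 3. AP2A1, a clathrin adaptor subunit, differed by -0.25 (SE 0.11), MARCHF8, a ubiquitin ligase that acts on class II and other surface proteins, by -0.24 (SE 0.17) and the cathepsin gene CTSV by 0.21 (SE 0.10). IFI30, the lysosomal thiol reductase that opens disulphide bonds of antigens, differed by -0.06 (SE 0.08). Of the 16 genes 3, CTSV among them, lay below the median of every array. Of 17 interferon gamma response genes 7 were lower and 10 higher, with a median of 0.04 that ran from -0.22 without both arrays numbered 3 to 0.15 without empty-vector array 1. Below the median of every array lay 7 of the 17, GBP4 among them, where a fall would be hard to see. CD274, the gene of PD-L1, differed by 0.27 (SE 0.41), GBP4, a guanylate-binding protein gene, by 0.21 (SE 0.12) and WARS1, a tRNA synthetase gene, by -0.16 (SE 0.28). NLRC5, the regulator of class I genes related to CIITA, differed by -0.06 (SE 0.13). B2M, the light chain of class I, was at 11.69, 11.80 and 12.55 in the GHSROS arrays and at 12.51, 11.78 and 11.65 in the empty-vector arrays, high on GHSROS array 3 and empty-vector array 1 (log2 fold change 0.03, SE 0.30).

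The 14 other genes fixed from the class II region were lower in 7 and higher in 7, with a median of 0.00 that was -0.15 without GHSROS array 3 and -0.23 without both arrays numbered 3. The largest difference was -0.22 (SE 0.11) for HSD17B8, a steroid dehydrogenase gene. RING1, a Polycomb ubiquitin ligase gene, differed by -0.10 (SE 0.16) and the zinc transporter gene SLC39A7 by 0.10 (SE 0.08). Of 8 costimulation and adhesion genes, some of whose products give T cells a second signal, 6 were lower and 2 higher. CD58 differed by -0.25 (SE 0.30), CD40 by -0.12 (SE 0.09) and TNFSF9 by 0.11 (SE 0.18). CD86 and CD80, the ligands of CD28, lay below every array median.

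**Figure D4:**
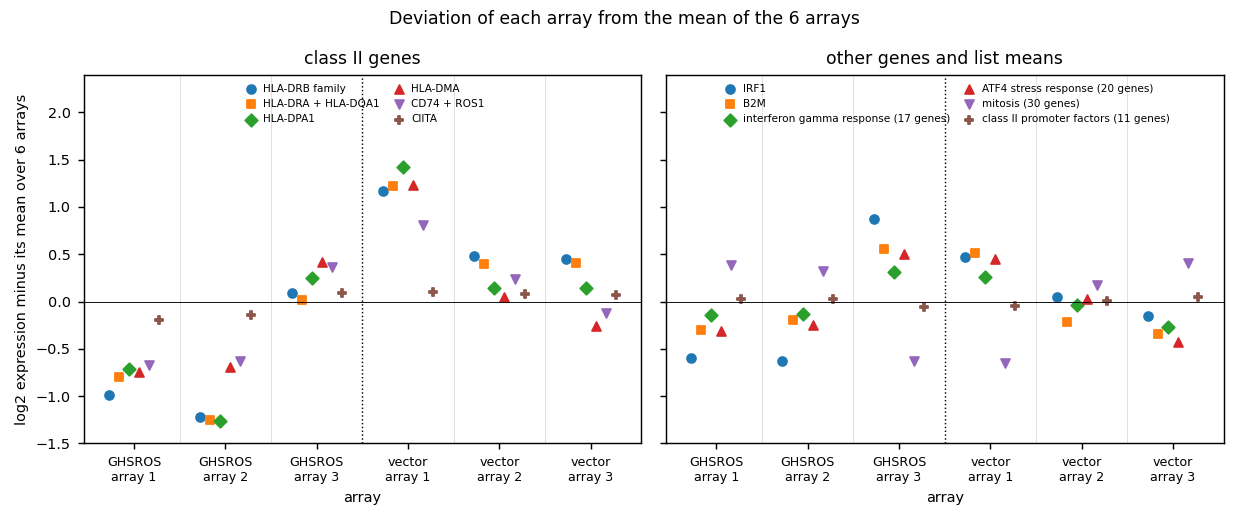
Log2 expression on each array minus the mean over the 6 arrays, for class II genes (left panel) and for IRF1, B2M and the means of 4 gene lists (right panel), with GHSROS arrays left of the dotted line. The HLA-DRB family, HLA-DRA, HLA-DPA1, HLA-DMA and CD74 are lowest on GHSROS arrays 1 and 2 and highest on empty-vector array 1, whereas IRF1 is highest on GHSROS array 3 and mitosis genes are lowest on GHSROS array 3 and empty-vector array 1.

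Markers of cells that carry class II in tissue were mostly at low levels. Of 8 B cell markers 6 lay below every array median, MS4A1, the gene of CD20, at 3.74 to 3.98 in the GHSROS arrays and 3.71 to 3.96 in the empty-vector arrays. The mean of the list was between 5.81 and 6.12 in the GHSROS arrays and between 6.02 and 6.11 in the empty-vector arrays. CD22, an inhibitory receptor of B cells, was the exception in its pattern, at 8.21, 8.04 and 9.21 in the GHSROS arrays, against 10.15, 8.99 and 8.68 in the empty-vector arrays (log2 fold change -0.78, SE 0.45). As for HLA-DMA, GHSROS arrays 1 and 2 were the lowest and empty-vector array 1 the highest, whereas CD79A and CD79B, the signalling chains of the B cell receptor, differed by -0.14 (SE 0.09) and 0.08 (SE 0.09). Of 14 macrophage and dendritic cell markers 11 lay below every array median. PTPRC, the gene of the leukocyte marker CD45, was at 3.62 to 3.68 in the GHSROS arrays and at 3.55 to 3.62 in the empty-vector arrays. The mean of that list was between 5.66 and 5.78 in the GHSROS arrays and between 5.69 and 5.76 in the empty-vector arrays, with CD68, a lysosomal protein gene of many cell types, at -0.24 (SE 0.13), TYROBP at 0.09 (SE 0.09) and ITGAM at -0.07 (SE 0.10). All 7 T cell markers lay below every array median, with list means of 5.04 to 5.08 in the GHSROS arrays and 4.96 to 5.13 in the empty-vector arrays. The part of these markers in the class II differences was not tested. CD3D differed by 0.33 (SE 0.12, unadjusted p of 0.0245), CD8A by 0.17 (SE 0.11) and CD4 by -0.13 (SE 0.10).

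Among the 18370 genes with a probe set of their own that are none of the 10, AK5 had the pattern most like that of HLA-DPA1. Likeness was measured as the root mean square difference over the 6 arrays after each gene's own mean was removed, on the log2 scale. It was 0.20 for AK5, an adenylate kinase gene, which was at 5.09, 4.39 and 5.99 in the GHSROS arrays, against 6.94, 5.35 and 5.78 in the empty-vector arrays. Next came CD22 at 0.24, CD96, a receptor gene of T and NK cells, at 0.26, VPS35L, a gene of endosomal recycling, at 0.30 and GPRC5B, an orphan G protein-coupled receptor gene, at 0.35. Their log2 fold changes were between -0.87 for AK5 and -0.71 for VPS35L, and none passed the test. For comparison the same measure was 0.18 for HLA-DPB1, 0.20 for HLA-DRA, 0.25 for the HLA-DRB family, 0.31 for HLA-DMA, 0.38 for CD74 and 0.55 for IRF1. It was 0.52 for HLA-DMB, 0.58 for HLA-DRB5, 0.69 for CTSS, 0.74 for CIITA and 0.88 for the probe set of HLA-DRB1 with HLA-DQB1. These readings and that of CD74 were all less like HLA-DPA1 than the 5 genes named first. A gene with small differences between arrays, as CIITA is, cannot come close to HLA-DPA1 by this measure.

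The lists that describe the state of the cultures held lower and higher genes, and as for all probe sets none passed the test. Of 6 genes that mark this line when expressed 4 were lower and 2 higher, with VIM at -0.17 (SE 0.09), TGFBI, a matrix protein gene, at 0.16 (SE 0.38) and CAV1, the caveolin gene, at -0.15 (SE 0.10). Of 6 genes chosen as low in this line, 3 lay below every array median. With GHSROS 3 of the 6 were lower and 3 higher, with EPCAM, an epithelial adhesion gene, at 0.29 (SE 0.16), CDH1 at -0.06 (SE 0.12) and ESR1 at 0.05 (SE 0.08). Of 30 mitosis genes 8 were lower and 22 higher, with a median log2 fold change of 0.04, and the largest difference was 0.26 (SE 0.28) for the spindle gene NUSAP1. The median was 0.37 without GHSROS array 3, -0.28 without empty-vector array 1 and 0.57 without both arrays numbered 3. Of 20 ATF4 stress genes 10 were lower and 10 higher, with a median of 0.00, and the largest difference was -0.28 (SE 0.83) for CHAC1, a glutathione-degrading enzyme gene. The median was -0.32 without GHSROS array 3, 0.17 without empty-vector array 1 and -0.57 without both arrays numbered 3.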

How the data were processed

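RNA of 3 GHSROS and 3 empty-vector samples was read on Affymetrix Human Gene arrays, and groups and replicate numbers came from the sample titles. Each deposited value is the log2 level of a probe set. The authors used RMA, per the submitters' processing notes, and neither its version nor a filter is stated there. RMA as usually run equalizes the arrays, which removes shifts common to most genes, and compresses differences of dim probe sets. Precision is limited by how many arrays there are. Of 28869 probe sets, 19310 have 1 symbol in the platform annotation, 1752 several and 7807 none; 0 columns were left out.

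All probe sets were tested in R 4.3.3 with limma 3.58.1 (lmFit, eBayes) on a model with group alone. Tests were two-sided, with Benjamini-Hochberg adjustment over all probe sets and a threshold of 0.05, and log2 fold changes subtract the empty vector from GHSROS. The fit was tested on simulated data, in which noise was drawn independently for each array. Such data lack the arrays that stood apart here and do not show how often a real difference would pass. Nothing in the labels describes how the replicates were kept separate, so their spread may be partly technical. The 10 genes and 18 gene lists were chosen with earlier results of these data known; of 199 listed symbols 18 have no probe set of their own. Named were all 10 genes, the 3 genes of each list with the largest absolute log2 fold change (for mitosis and ATF4 lists only the first is given), genes chosen for their role, and the 5 most like HLA-DPA1. Deviations of same-numbered arrays from their group means had no common direction. Their correlations were -0.609 for the arrays numbered 1, 0.473 for those numbered 2 and -0.554 for those numbered 3. Alternatives were a replicate block, 2 scalings, 2 level filters, 1 probe set per gene, an intensity trend with robust prior, array weights and omitted arrays.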

Additional observations from a re-analysis of the deposited data

How the results depend on the processing

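No probe set passed an adjusted p of 0.05 under any of the 16 alternatives, the replicate block included, and the smallest adjusted limma p of a class II reading was 0.124, for the HLA-DRB family without empty-vector array 1 and GHSROS array 3. The log2 fold change was below 0 under every alternative that kept the probe set for 9 of the 11 readings, from -1.93 to -1.15 for the HLA-DRB family, -1.83 to -1.06 for HLA-DRA, -1.77 to -0.72 for HLA-DPA1, -1.57 to -0.63 for HLA-DPB1, -1.36 to -0.23 for HLA-DMA and -1.17 to -0.37 for CD74. CTSS turned to -0.13 with array weights, -0.17 without GHSROS array 3, -0.01 without empty-vector array 2, -0.27 without empty-vector array 3 and -0.46 without both arrays numbered 3. The probe set of HLA-DRB1 and HLA-DQB1 turned to -0.0044 without GHSROS array 1. Without single arrays CTSS reached 0.35, and without the 2 arrays that stood apart the HLA-DRB1 and HLA-DQB1 probe set was at 0.17. The causes were not tested. Of the medians of the gene lists that do not hold the 10 genes, several changed sign with the arrays kept, among them those for antigen processing, interferon gamma response, mitosis and ATF4 genes, with values given beside each list. The number of probe sets at an unadjusted p under 0.05, 565, was 1041 with array weights and 2219 without both arrays numbered 3. With fewer probe sets tested it was 178 at or above the median level, 355 at or above the 25th percentile and 325 with 1 probe set per gene, where 3 of the 7 probe sets left were at least 1.5-fold lower. Without single arrays it ranged from 356 to 813, and the number of class II probe sets at least 1.5-fold lower from 12 to 19. With the replicate block these counts were 448 and 16, and the numbers are not shown to pair the samples.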
